A study of Homo sapiens with 15 samples.

Results

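The response of hypoxic A549 cells to BB2-125 was taken from 6 of the 15 arrays of the series, 3 from hypoxic cultures given BB2-125 and 3 from hypoxic cultures given vehicle, picked by their titles. A549 is a human lung adenocarcinoma cell line. BB2-125 is known here by its code name, and the design text names it with BB2-162 and BB2-282 as a transcriptional inhibitor. The BB2-125 cultures received 10 µM of the compound in 0.1% DMSO, were kept for 6 h, and then spent 42 h in a hypoxic gas pouch. The hypoxic vehicle cultures received 0.1% DMSO and the same 6 h and 42 h. The other 9 arrays were 3 each of BB2-162 and BB2-282 at 10 µM under the same schedule, and of normoxic vehicle (0.1% DMSO). No array of compound in normoxia was analysed here, so an effect on hypoxic transcription and a general effect of BB2-125 cannot be told apart. The labels call the replicates biological without saying what was separate, so the tests see only the variation among these arrays. In RNA from whole cultures, fewer cells of a kind and less RNA per cell cannot be told apart.

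Cells meet low oxygen mainly through the hypoxia-inducible factors (HIF), pairs of an oxygen-regulated alpha subunit and ARNT. When oxygen falls, the prolyl hydroxylases no longer mark the alpha subunit for destruction. The pair then binds the core letters ACGTG or GCGTG near its targets and recruits the coactivators CBP and p300 to genes of glycolysis, blood vessel growth and matrix remodelling. In lung adenocarcinoma cells, growth also depends on receptor tyrosine kinases such as EGFR and MET and on integrins that hold cells to their matrix. Prolonged hypoxia slows the cell cycle and changes lipid, amino acid and redox metabolism.

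Values are log2 intensities of 1 probe set per gene, and changes are BB2-125 minus hypoxic vehicle on that scale, with limma's standard error (3 arrays a group). A gene was called at a Benjamini-Hochberg adjusted p under 0.05 over 16005 genes tested. Median linear intensity lay between 74.91 and 84.6 on the 15 arrays, and their number limits the precision. BB2-162 replicate 1 stood apart, with a root mean square deviation from its group of 0.227 against 0.111 to 0.178 on the other arrays. All 10 markers of A549 epithelium were above the dim level of 4.73, the mean of the arrays' 25th percentiles. Their summed linear intensity was 24500 to 26880 with BB2-125, against 17340 to 19230 in hypoxic vehicle and 40600 to 44230 in normoxia. Of the 10, 5 were called higher with BB2-125 and 0 lower. They include AKR1B10 (mean 9.03 in hypoxic vehicle and 10.83 with BB2-125) and ALDH3A1 (9.47 and 11.14), which are also in the NRF2 list below. KRT19 averaged 10.41 in both groups, and CDH1 8.01 in hypoxic vehicle and 7.8 with BB2-125. Markers of other cells had smaller sums. The 8 fibroblast markers summed to 447.1 to 477.7 with BB2-125 and 420.5 to 483.0 in hypoxic vehicle, and the 7 leukocyte markers to 362.9 to 379.5 and 317.1 to 372.9. The 8 endothelial markers summed to 410.0 to 468.6 with BB2-125 and 385.4 to 426.0 in hypoxic vehicle. In both groups 4 of the 8 fibroblast and 2 of the 7 leukocyte markers were at or below the dim level, among them DCN, LUM, FAP and PTPRC. Of the endothelial markers 1 was with BB2-125 and 2 in hypoxic vehicle. The other markers were above it, such as COL1A1 (7.66 with BB2-125) and CD79A (6.6), whereas EPCAM of the epithelial list read 5.64.

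BB2-125 moved 4539 of the 16005 genes (28.4%), 2135 higher (13.3%) and 2404 lower (15%). Counts of list members below are to be read beside these shares. The median change was 0.02 over all genes, 0.53 over those higher and -0.58 over those lower. At least 2-fold changes were more often falls, with 404 genes lower and 206 higher. The groups of 3 arrays did not overlap for 6603 genes (41.3%), 4420 of which were called. Genes named from a list below were mostly its called members of lowest p. Separation of their groups thus follows largely from that choice and is no added evidence. Of the kinds of gene, 29.4% of 14875 protein-coding genes were called, against 11.1% of 503 long noncoding RNA genes.

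The largest rises brought together a secreted matrix protein, stress genes, histones and lipid enzymes. SPP1, which encodes the secreted phosphoprotein osteopontin, read 10.85, 10.83 and 10.88 with BB2-125 against 8.14, 8.26 and 7.88 in hypoxic vehicle. NUPR1, a small chromatin protein induced by stress, read 10.49, 10.51 and 10.46 against 8.06, 7.64 and 7.96. EREG, the EGF receptor ligand epiregulin, read 10.21, 10.76 and 10.38 against 8.11, 8.24 and 7.52. Separation of the 2 groups of arrays was a condition for choosing the rises of this paragraph. The changes were 2.75 ± 0.11 for SPP1, 2.60 ± 0.12 for NUPR1 and 2.49 ± 0.20 for EREG. IDH1, the cytosolic isocitrate dehydrogenase that makes NADPH, changed by 2.42 ± 0.14 and CGAS, the sensor of DNA in the cytosol, by 2.18 ± 0.13. The other large rises were the histone genes H2BC14 (2.49 ± 0.14), H3C12 (2.34 ± 0.15) and H3C11 (2.14 ± 0.12), SNORD75 (2.47 ± 0.16), CES1 (2.33 ± 0.19), PSAT1 (2.19 ± 0.19), DHCR7 (2.02 ± 0.12), CLU (1.97 ± 0.11), C5 (1.97 ± 0.18) and ACAT2 (1.95 ± 0.12). The highest adjusted p among these 15 was 1.86e-07 (limma).

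The largest falls began with EGFR, the receptor of epidermal growth factor. EGFR read 7.27, 7.86 and 7.41 with BB2-125 against 9.85, 10.40 and 10.06 in hypoxic vehicle. TNS4, a tensin that binds integrin tails at focal adhesions, read 7.59, 7.30 and 7.43 against 9.79, 10.29 and 9.73. PMEPA1, a TGF-beta target whose product dampens that pathway, read 8.22, 8.24 and 8.13 against 10.44, 10.64 and 10.59. The falls of this paragraph were likewise chosen among genes with separated groups. The changes were -2.59 ± 0.17 for EGFR, -2.49 ± 0.14 for TNS4 and -2.36 ± 0.11 for PMEPA1. CP, the copper ferroxidase ceruloplasmin, changed by -2.35 ± 0.18, TNS1, another tensin, by -2.36 ± 0.12, and F3, tissue factor, by -2.18 ± 0.13. The other falls among the 15 were TMEM47 (-2.56 ± 0.14), TRAM2 (-2.46 ± 0.15), GABRE (-2.41 ± 0.17), ABTB3 (-2.34 ± 0.13), BRD10 (-2.25 ± 0.29), DOCK5 (-2.19 ± 0.16), IGFBP1 (-2.18 ± 0.15), IL4R (-2.18 ± 0.11) and the trypsinogen pseudogene PRSS3P2 (-2.45 ± 0.16), whose probes may read related trypsinogens. The highest adjusted p among these 15 falls was 1.01e-05.

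**Figure D1:**
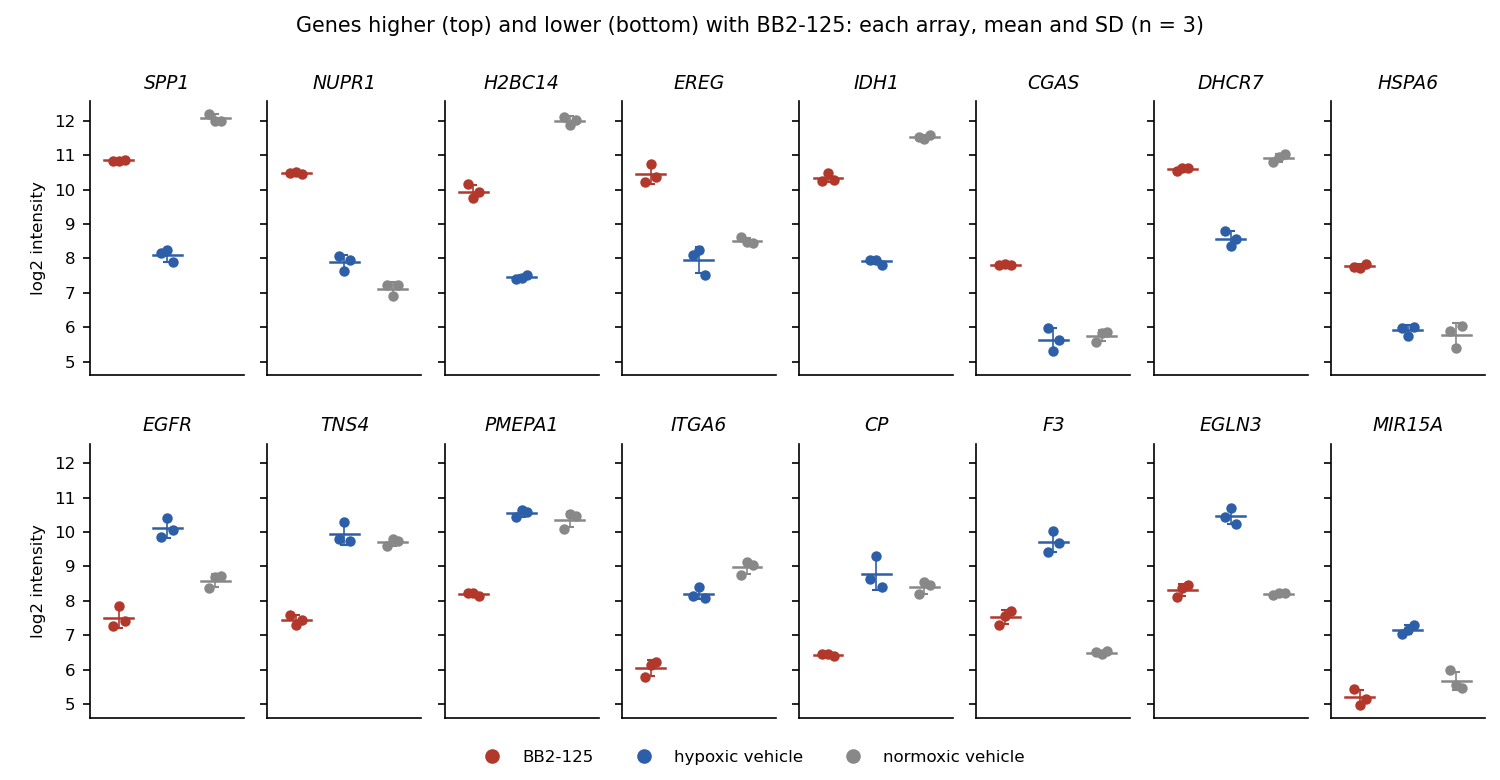
Log2 intensity of 8 genes higher (top row) and 8 lower (bottom row) with BB2-125, for each array of BB2-125, hypoxic vehicle and normoxic vehicle from left to right, with mean (line) and SD (bar, n = 3). The red and blue groups do not overlap in any panel, which was a condition for choosing the largest rises and falls. SPP1 reads 10.85, 10.83 and 10.88 in BB2-125 against 8.14, 8.26 and 7.88 in hypoxic vehicle.

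Several further changes are bounds, since 1 group's mean was below the dim level. SNORD77 read 7.11, 6.93 and 6.97 with BB2-125 against 4.23, 3.85 and 3.83, a fitted change of 3.03 and of 2.27 counted from the dim level. TNFAIP6, a hyaluronan-binding protein of inflammation, read 4.80, 4.53 and 4.69 with BB2-125 against 6.95, 8.29 and 6.58, a fitted change of -2.60 and of -2.55 from the dim level. RNU5D-1 was the least even rise, at 8.70, 5.32 and 6.69 with BB2-125 against 3.92, 4.0 and 3.66. DNAJB4 (1.37 from the dim level), SNORA29 (1.78) and H2AC14 (0.70) rose likewise, and TCN1 (-1.68), EDIL3 (-1.47), HHLA2 (-0.46) and LINGO2 (-0.41) fell. At the other end of the scale, the rises of highest signal were UBB (0.43 ± 0.09), PTMA (0.50 ± 0.10), FTL (0.81 ± 0.11), KRT8 (0.35 ± 0.10) and TRMT112 (0.33 ± 0.10). The falls of highest signal were S100A10 (-0.29 ± 0.09), NDRG1 (-0.32 ± 0.09), SNORD116-15 (-0.37 ± 0.10), SNORD116-20 (-0.60 ± 0.14) and MT1X (-0.99 ± 0.14). Of these 10 genes, 4 were not called without 1 array: KRT8 without hypoxic vehicle replicate 3 (adjusted p = 0.0529), TRMT112 without that array (0.0734) or without BB2-125 replicate 2 (0.0684) or 3 (0.0502), S100A10 without hypoxic vehicle replicate 2 (0.07) or BB2-125 replicate 1 (0.066) or 2 (0.0596), and NDRG1 without hypoxic vehicle replicate 2 (0.0662) or BB2-125 replicate 1 (0.0627).

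Of 22 receptor tyrosine kinases tested, 8 were lower, 0 were higher and 14 did not pass. The median change was -0.11 against 0.02 over all genes. MET, the receptor of hepatocyte growth factor, read 8.71, 9.27 and 8.90 with BB2-125 against 10.58, 11.15 and 10.52. That is a change of -1.79 ± 0.19 with no overlap. FGFR1 changed by -1.02 ± 0.11, AXL by -0.50 ± 0.14 and INSR by -0.43 ± 0.10. Without hypoxic vehicle replicate 2, or without BB2-125 replicate 1, 5 receptors were called in place of 8, and without hypoxic vehicle replicate 2 AXL was not called (adjusted p = 0.0728).

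The ligands of EGFR moved in different directions. EREG rose as given above, whereas TGFA, transforming growth factor alpha, read 7.03, 7.25 and 7.17 with BB2-125 against 8.83, 8.85 and 8.70. Its change was -1.64 ± 0.11, with no overlap between the groups. HBEGF read 7.42, 7.69 and 7.69 against 7.26, 7.59 and 7.62, overlapping, with a change of 0.11 ± 0.13 that was not called. Of 20 feedback genes of the ERK pathway downstream, 5 rose and 5 fell. Among those lower were SPRED1, a brake on RAS (-1.45 ± 0.10), and ERRFI1, an inhibitor of EGFR (-1.04 ± 0.12); DUSP6, a phosphatase of ERK, was at 0.19 ± 0.15 and not called.

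Integrins and laminins, the receptors and sheets by which epithelium holds to its basement membrane, were lower more often than not. Of 18 tested, 11 were lower and 1 higher, with a median change of -0.53. ITGA6, the alpha chain of the laminin receptor, read 5.79, 6.14 and 6.23 with BB2-125 against 8.15, 8.40 and 8.08 in hypoxic vehicle. Its partner chain ITGB4 read 9.73, 9.91 and 9.93 against 11.40, 11.71 and 11.44. ITGA2, of the collagen receptor, read 8.80, 9.0 and 8.89 against 10.72, 11.16 and 10.77. All 3 genes were separated from hypoxic vehicle, with changes of -2.15 ± 0.16 (ITGA6), -1.66 ± 0.14 (ITGB4) and -1.99 ± 0.16 (ITGA2). LAMB3, a laminin chain, changed by -1.36 ± 0.11 and LAMB2 by -0.73 ± 0.10, while ITGA3 was at -0.21 ± 0.13 and not called.

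The response genes of TGF-beta and of YAP, the coactivator that senses cell spreading, moved in the same direction. In the TGF-beta list 12 of 21 were lower and 3 higher (median -0.38), and in the YAP and TEAD list 12 of 20 were lower and 3 higher (median -0.47). TGFBR1, the type I receptor, read 8.02, 7.73 and 7.86 with BB2-125 against 9.70, 9.90 and 9.81 in hypoxic vehicle. The inhibitory SMAD genes, which TGF-beta signalling induces, stood apart likewise, with SMAD6 at -1.36 ± 0.10 and SMAD7 at -1.27 ± 0.11. TGFBR1 itself changed by -1.94 ± 0.11, THBS1, thrombospondin 1, by -1.58 ± 0.14 and TGFB1 by -0.77 ± 0.10. Of the YAP list, F3 is given above, and AMOTL2 (-0.85 ± 0.10), CRIM1 (-0.90 ± 0.12) and WWTR1 (-0.85 ± 0.11), the YAP paralogue TAZ, were lower. The best known YAP targets moved little, with CCN2 at -0.38 ± 0.10 and CCN1 at -0.04 ± 0.12, the second not called. TEAD4 was higher (0.53 ± 0.10).

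Enzymes that build collagen were mostly lower or not called. Of 19 tested, 7 were lower and 1 higher (median -0.13). LOX, the oxidase that cross-links collagen, read 5.98, 5.73 and 5.99 with BB2-125 against 7.68, 8.0 and 7.14. PLOD2, a lysyl hydroxylase, read 10.86, 10.89 and 10.74 against 12.27, 12.44 and 12.07. Both were separated from hypoxic vehicle (-1.70 ± 0.16 for LOX and -1.43 ± 0.12 for PLOD2), and PLOD2 with BB2-125 averaged 10.83, near its normoxic mean of 10.95. SERPINH1, the collagen chaperone, was the member that rose, at 0.74 ± 0.12. Of 18 collagen chains 4 were lower, among them COL7A1 (-0.88 ± 0.11), and 0 higher. That is 22.2% called, against 28.4% of all genes.

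Targets of HIF fell in part. Of 38 tested targets in signalling and survival, 20 were lower and 2 higher, with a median change of -0.36. Between normoxia and hypoxic vehicle the median change of the same 38 was 1.71, a comparison that shares the vehicle arrays. EGLN3, the prolyl hydroxylase that HIF itself induces, read 8.11, 8.38 and 8.45 with BB2-125 against 10.43, 10.71 and 10.24 in hypoxic vehicle. EDN1, the vasoconstrictor endothelin 1, read 8.67, 8.65 and 8.58 against 10.17, 10.46 and 10.03. VEGFA, the main growth factor of blood vessels, read 10.44, 10.59 and 10.59 against 11.28, 11.54 and 11.43. The 3 genes did not overlap between the groups, with changes of -2.15 ± 0.12, -1.59 ± 0.13 and -0.87 ± 0.11 in that order. Mean levels in normoxia were 8.20 for EGLN3, 10.08 for EDN1 and 7.76 for VEGFA, so that EGLN3 with BB2-125 (8.31) lay near its normoxic level, EDN1 (8.63) below it and VEGFA (10.54) well above it. PDGFB (-1.36 ± 0.10), TMEM45A (-1.19 ± 0.11), INSIG2 (-1.08 ± 0.11), CXCR4 (-0.95 ± 0.13) and ANGPTL4 (-0.81 ± 0.16) were also lower.

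Other HIF targets were not lower. ANKRD37 read 9.36, 9.08 and 9.11 with BB2-125 against 8.43, 8.11 and 8.27, a rise of 0.91 ± 0.12, and PLIN2, a coat protein of lipid droplets, rose by 0.38 ± 0.09. ADM, the vasodilator adrenomedullin, read 12.45, 12.78 and 12.62 against 12.42, 12.43 and 12.34, a difference of 0.22 ± 0.10 that was not called. The members of the list thus spread from -2.15 to 0.91. ADM, PLIN2 and ANKRD37 averaged 8.77, 7.29 and 7.0 in normoxia, below both hypoxic groups.

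Glucose genes were split likewise. Of 24 tested genes of glucose uptake, glycolysis and glycogen, 10 were lower and 1 higher, with a median of -0.21. PYGL, which breaks down glycogen, read 9.84, 9.84 and 9.83 with BB2-125 against 11.17, 11.47 and 11.13 (-1.43 ± 0.11). ALDOC, an aldolase, went the other way, with 11.73, 12.05 and 12.02 against 10.82, 10.64 and 10.68 (1.22 ± 0.14). HK2, a hexokinase, overlapped between the groups and was not called (0.02 ± 0.17). GYS1, glycogen synthase (-1.11 ± 0.14), PFKP, a phosphofructokinase (-0.97 ± 0.15), and SLC2A1, the glucose transporter GLUT1 (-0.52 ± 0.11), were lower. Without BB2-125 replicate 1, 6 glucose genes were called lower in place of 10. Of the pyruvate dehydrogenase kinases, which divert pyruvate from the mitochondria, PDK4 read 8.91, 8.89 and 8.86 with BB2-125 against 7.23, 7.17 and 6.55 (1.90 ± 0.15), whereas PDK1 was at -0.15 ± 0.14 and not called.

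**Figure D2:**
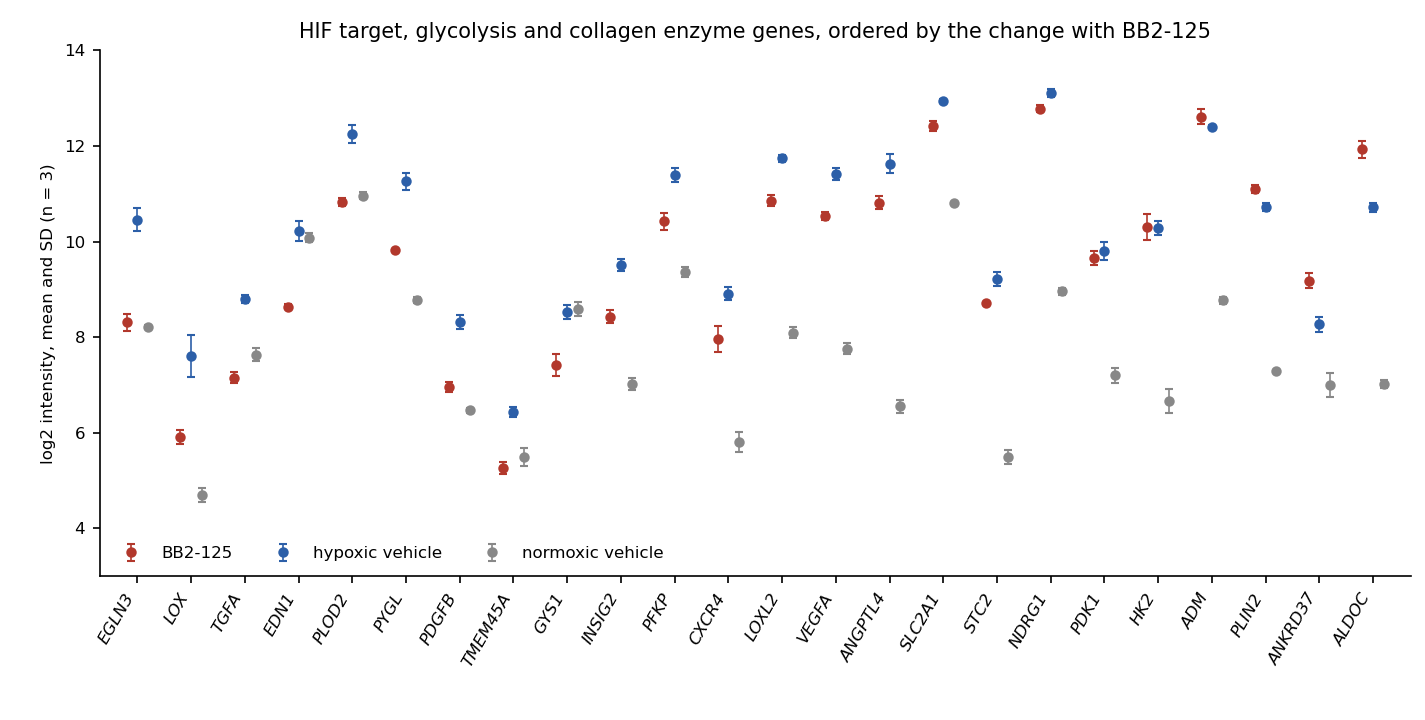
Mean log2 intensity with SD (n = 3) of 24 HIF target, glycolysis and collagen enzyme genes in BB2-125, hypoxic vehicle and normoxic vehicle (left to right within a gene), ordered from the largest fall to the largest rise with BB2-125. EGLN3 with BB2-125 (8.31) lies at its normoxic level (8.20), while ALDOC stands above hypoxic vehicle by 1.22.

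Among the components of the HIF pathway, the transcript of HIF1A read 10.18, 10.38 and 10.21 with BB2-125 against 9.58, 9.92 and 9.40. EPAS1, which encodes HIF-2 alpha, read 11.09, 11.41 and 11.23 against 12.19, 12.43 and 12.34. The alpha subunits thus moved apart, by 0.62 ± 0.15 for HIF1A and -1.07 ± 0.12 for EPAS1, with no overlap in either. The coactivator genes CREBBP, at 8.33, 8.64 and 8.44 against 9.40, 9.79 and 9.65, and EP300 were lower by about 1 unit (-1.14 ± 0.17 and -0.97 ± 0.19).

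The promoter of EDN1 is shown as the called HIF target of lowest p whose window from 250 bases before to 50 after the gene start held the HIF core. The core was searched as ACGTG or GCGTG on both strands, and capitals mark the 3 matches, which begin 240, 93 and 47 bases before the start (RefSeq, GRCh38.p14, chr6:12287769-12288068, + strand).
EDN1: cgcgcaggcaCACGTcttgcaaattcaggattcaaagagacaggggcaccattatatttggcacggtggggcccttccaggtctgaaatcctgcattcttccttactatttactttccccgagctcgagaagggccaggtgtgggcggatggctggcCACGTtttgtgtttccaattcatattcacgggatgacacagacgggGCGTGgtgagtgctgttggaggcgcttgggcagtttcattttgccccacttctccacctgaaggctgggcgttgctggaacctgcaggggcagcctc
The first pair of marked runs reads ACGTG on the other strand. A HIF core was present in 25 of 30 promoters of the HIF target list (83.3%) and in 59.1% of the 12500 promoters matched to genes tested. Of the HIF targets called lower, 10 of 14 promoters held it (71.4%). It was present in 62.8% of the promoters of genes called higher and in 63.3% of those called lower.

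Of 39 genes of DNA replication, 24 were higher and 0 lower (median 0.38), and of 41 genes of mitosis, 23 were higher and 0 lower (median 0.44). RFC3, a subunit of the clamp loader, read 7.65, 7.67 and 7.51 with BB2-125 against 6.12, 6.19 and 6.02 in hypoxic vehicle. FOXM1, the transcription factor of the late cell cycle, read 8.57, 8.45 and 8.44 against 7.29, 7.16 and 7.22. CCNB2, a mitotic cyclin, read 9.46, 9.12 and 9.26 against 8.18, 8.11 and 7.89. The groups did not overlap in any of the 3, and the changes were 1.50 ± 0.15 for RFC3, 1.26 ± 0.12 for FOXM1 and 1.22 ± 0.13 for CCNB2. Mean levels in normoxia were 8.86, 9.13 and 9.37 in the same order, at or above those of both hypoxic groups. CDC6 (1.25 ± 0.15), GINS2 (1.05 ± 0.12) and ORC1 (0.89 ± 0.10) of replication origins and MYBL2 (0.78 ± 0.10) and TPX2 (0.71 ± 0.12) of mitosis were higher too. Without hypoxic vehicle replicate 3 the mitotic genes called higher numbered 14.

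TOP2A, a mitotic topoisomerase, was among those not called, at 8.90, 8.70 and 8.71 with BB2-125 against 8.45, 8.82 and 8.02 (0.34 ± 0.17), groups that overlapped; it was called without hypoxic vehicle replicate 2 (0.54, adjusted p = 0.0224). Recombination and repair genes followed with 13 of 26 higher and 1 lower, or 2 lower when replicate number was a block (median 0.40). Those higher included RAD54B (1.10 ± 0.11), RAD51C (0.90 ± 0.14) and BLM (0.64 ± 0.13). The drivers of the cycle were mixed, with 5 of 24 cyclins, kinases, inhibitors and E2F factors higher and 4 lower. Those shares, 20.8% and 16.7%, are near the 13.3% and 15% of all genes. CCND3, a D cyclin, rose by 0.78 ± 0.11, whereas CCND1 (-0.56 ± 0.09) and CDKN1B, the inhibitor p27 (-0.82 ± 0.12), were lower.

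Of 45 histone genes that are copied in S phase, 29 were higher and 1 lower, with a median change of 0.69. H2BC14 read 10.15, 9.76 and 9.93 with BB2-125 against 7.40, 7.44 and 7.52, and 12.01 on average in normoxia. H3C10 (1.82 ± 0.14), H4C13 (1.75 ± 0.15) and H2AC4 (1.44 ± 0.15) also rose. The member that fell was H4C8, at 9.10, 8.88 and 8.81 with BB2-125 against 10.59, 11.22 and 10.19 (-1.74 ± 0.19), separated from hypoxic vehicle and close to its normoxic mean of 8.84. Histone genes are near-identical copies, so the value of any single one is uncertain.

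Promoters of these groups were searched for the CHR element of mitotic genes, TTTGAA, and for the CCAAT box, CCAAT, on both strands. CHR was in 20 of 33 mitotic promoters (60.6%) against 10.4% of all 12500, and CCAAT in 36 of 40 histone promoters (90.0%) against 35.8% of all. CCAAT was in 42.7% of the promoters of genes called higher and in 31.9% of those of genes called lower, and CHR in 11.6% and 8.32%. Of the 17 promoters of mitotic genes called higher, 10 held CHR (58.8%). CCAAT was in 12 of these 17 (70.6%), against 72.7% of the 33. Of 25 histone promoters called higher 23 held CCAAT (92.0%). An E2F site, also searched, was in 10 of 34 replication promoters (29.4%) and 5 of the 21 called higher (23.8%), against 2.4% of all. CCNB2 and H2BC14 are printed as the called members of lowest p that hold CHR (mitosis) and CCAAT (histones). Capitals mark CHR alone in CCNB2 and CCAAT alone in H2BC14. CCNB2 also holds CCAAT, left in small letters. Coordinates are GRCh38.p14, chr15:59104896-59105195 (+ strand) for CCNB2 and chr6:27814772-27815071 (+ strand) for H2BC14.
CCNB2: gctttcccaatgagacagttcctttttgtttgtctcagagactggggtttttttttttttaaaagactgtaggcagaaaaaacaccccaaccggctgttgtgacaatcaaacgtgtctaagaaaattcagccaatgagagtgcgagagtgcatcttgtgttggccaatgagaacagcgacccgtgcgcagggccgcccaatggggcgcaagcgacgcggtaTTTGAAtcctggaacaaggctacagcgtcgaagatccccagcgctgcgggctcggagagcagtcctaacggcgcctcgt
H2BC14: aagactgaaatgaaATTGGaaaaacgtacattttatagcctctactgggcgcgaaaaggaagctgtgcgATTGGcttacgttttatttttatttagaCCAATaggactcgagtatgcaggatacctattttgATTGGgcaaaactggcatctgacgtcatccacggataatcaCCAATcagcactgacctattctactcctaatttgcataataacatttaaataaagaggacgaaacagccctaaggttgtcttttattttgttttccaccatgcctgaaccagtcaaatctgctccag
The CHR of CCNB2 begins 29 bases before the gene start, and ATTGG in H2BC14 is CCAAT on the other strand. A match is a description of the letters and no test of binding.

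**Figure D3:**
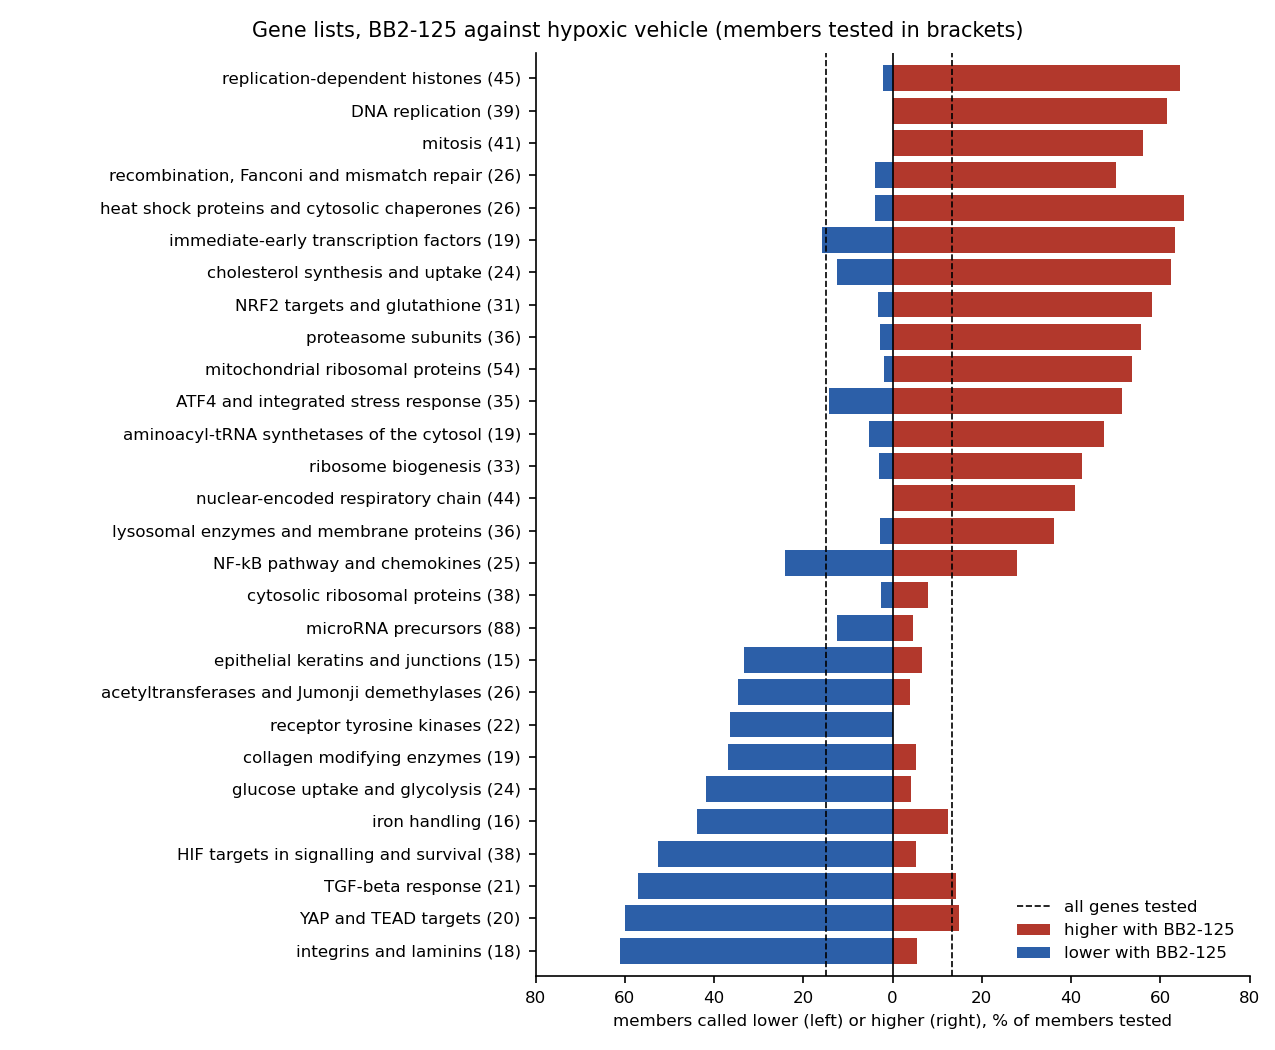
Share of the members tested that were called higher (red, right) or lower (blue, left) with BB2-125 against hypoxic vehicle in 28 gene lists; dashed lines mark 13.3% higher and 15% lower over all genes tested. Histones, replication and chaperones extend to the right, and integrins, YAP and TGF-beta targets and HIF targets to the left.

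Of 35 genes of the ATF4 programme, which supplies amino acids under stress, 18 were higher and 5 lower (median 0.36). ASNS, asparagine synthetase, read 10.00, 9.82 and 9.93 with BB2-125 against 8.52, 8.22 and 8.40 in hypoxic vehicle (1.54 ± 0.11). ATF3, a stress transcription factor, read 8.73, 8.98 and 8.79 against 7.62, 7.12 and 7.38 (1.46 ± 0.18). DDIT3, the stress factor CHOP, read 11.30, 11.45 and 11.34 against 10.31, 10.19 and 9.95 (1.21 ± 0.13). These genes had higher levels with BB2-125 than in hypoxic vehicle on every array, and their normoxic means were 7.38, 6.08 and 6.84. SLC7A11, the cystine carrier, rose by 1.43 ± 0.14 and its partner SLC3A2 by 1.12 ± 0.12. The neutral amino acid carriers SLC38A2 (-1.12 ± 0.13) and SLC7A5 (-0.84 ± 0.11) of the same list were lower. Of 19 cytosolic tRNA synthetases 9 were higher and 1 lower, led by NARS1 (0.91 ± 0.12) and WARS1 (0.84 ± 0.11).

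Of 31 genes under NRF2, the factor that answers oxidants, 18 were higher and 1 was lower (median 0.44), with 2 lower when replicate number was a block. NQO1, a quinone reductase, read 11.40, 11.41 and 11.41 with BB2-125 against 9.78, 9.67 and 9.46. AKR1B10, an aldo-keto reductase, read 11.07, 10.62 and 10.81 against 9.38, 9.10 and 8.61. Both were separated (1.77 ± 0.11 and 1.80 ± 0.16) and both lay below their normoxic means of 12.58 and 12.73. ALDH3A1 (1.67 ± 0.11), TXNRD1, thioredoxin reductase (1.16 ± 0.11), and GSTP1 (0.90 ± 0.10) were higher as well. The median change of this list between normoxia and hypoxic vehicle was -1.63.

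Of 26 chaperone genes 17 were higher and 1 was lower (median 0.46), with 2 lower when replicate number was a block. HSPA6, a strictly inducible HSP70, read 7.75, 7.72 and 7.84 with BB2-125 against 5.97, 5.74 and 6.01. HSPH1, an HSP110, read 9.50, 9.93 and 9.54 against 7.97, 7.93 and 7.97. Their changes were 1.86 ± 0.15 and 1.70 ± 0.14 with no overlap, and only HSPA6 exceeded its normoxic mean (5.79, against 9.83 for HSPH1). HSPB8 (1.46 ± 0.10), DNAJB1 (1.24 ± 0.12) and HSP90AA1 (1.08 ± 0.12) were higher. HSF1, the transcription factor of the heat shock genes, was the member that was lower, by -0.55 ± 0.11.

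The promoters of ASNS, TXNRD1 and HSPA6 hold the motif of their programme and were the called members of lowest p that do. The motifs were the CHOP-ATF4 element TGATGNAA, the antioxidant response element TGACNNNGC and the heat shock element, searched on both strands; capitals mark matches. Coordinates are GRCh38.p14, chr7:97872359-97872658 on the minus strand for ASNS, chr12:104215529-104215828 (+) for TXNRD1 and chr1:161524290-161524589 (+) for HSPA6.
ASNS: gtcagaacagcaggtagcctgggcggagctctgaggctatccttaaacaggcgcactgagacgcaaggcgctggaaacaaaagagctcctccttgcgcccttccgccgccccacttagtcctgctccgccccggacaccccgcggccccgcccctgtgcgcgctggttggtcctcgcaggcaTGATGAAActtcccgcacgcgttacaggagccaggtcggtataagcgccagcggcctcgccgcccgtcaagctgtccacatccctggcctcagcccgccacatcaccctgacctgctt
TXNRD1: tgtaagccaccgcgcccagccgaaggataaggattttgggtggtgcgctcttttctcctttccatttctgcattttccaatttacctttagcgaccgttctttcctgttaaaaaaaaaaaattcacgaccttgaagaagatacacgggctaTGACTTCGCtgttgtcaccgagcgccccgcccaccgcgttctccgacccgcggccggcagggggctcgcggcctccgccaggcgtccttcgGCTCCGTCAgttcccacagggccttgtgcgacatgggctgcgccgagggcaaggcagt
HSPA6: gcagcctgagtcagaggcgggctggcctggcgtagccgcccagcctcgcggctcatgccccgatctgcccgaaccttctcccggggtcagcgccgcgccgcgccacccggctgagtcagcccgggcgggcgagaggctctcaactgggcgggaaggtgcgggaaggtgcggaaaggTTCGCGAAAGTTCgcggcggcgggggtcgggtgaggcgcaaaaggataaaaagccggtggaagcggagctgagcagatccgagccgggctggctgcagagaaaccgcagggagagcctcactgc
The CHOP-ATF4 element was in 6 of 29 promoters of the ATF4 list (20.7%) and 6 of 16 of the tRNA synthetases (37.5%), against 2.11% of all 12500. The antioxidant element was in 7 of 22 promoters of the NRF2 list (31.8%), 6 of them among the 13 called higher, against 15.1% of all. The heat shock element was in 4 of 23 chaperone promoters (17.4%), 2 of them among the 15 called higher, against 0.328% of all. A sterol regulatory element, also searched, was in 1 of 21 promoters of the cholesterol list (4.76%) and 0 of the 13 called higher, against 0.136% of all.

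Of 26 targets of p53 11 were higher and 3 lower, or 9 and 5 when replicate number was a block. GADD45A, a growth arrest gene, read 9.35, 9.04 and 9.07 with BB2-125 against 7.81, 7.55 and 7.87 (1.41 ± 0.13), while the repair gene DDB2 changed by -0.83 ± 0.10. In the BCL2 family, MCL1, a short-lived survival protein, read 9.71, 9.98 and 9.69 against 11.27, 11.45 and 11.19 (-1.51 ± 0.13). PMAIP1, which encodes NOXA, an antagonist of MCL1, read 8.56, 8.58 and 8.26 against 7.08, 7.26 and 7.11 (1.32 ± 0.11). The 2 genes were separated in opposite directions, and over 18 tested family members 5 were higher and 2 lower.

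Sterol synthesis genes were mostly higher. Of 24 genes of cholesterol synthesis and uptake 15 were higher and 3 lower, with a median of 0.51. DHCR7, the last enzyme of cholesterol synthesis, read 10.54, 10.62 and 10.64 with BB2-125 against 8.80, 8.38 and 8.55 in hypoxic vehicle. FDPS, which makes farnesyl diphosphate, read 9.13, 8.82 and 9.10 against 7.33, 7.10 and 7.27. GGPS1, which draws farnesyl diphosphate off to geranylgeranyl diphosphate, read 6.09, 5.74 and 5.87 against 7.26, 7.20 and 6.96. DHCR7 (2.02 ± 0.12) and FDPS (1.78 ± 0.12) lay above hypoxic vehicle on every array and GGPS1 (-1.24 ± 0.12) below it. EBP (1.67 ± 0.12), STARD4 (1.49 ± 0.12) and CYP51A1 (0.97 ± 0.09) were higher. Fatty acid enzymes were higher in 8 of 23 cases and lower in 2, with FADS2, a desaturase, at 1.35 ± 0.11 and ACSL5, an acyl-CoA synthetase, at -1.69 ± 0.16.

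Of 54 mitochondrial ribosomal proteins 29 were higher and 1 lower (median 0.36), and of 36 proteasome subunits 20 were higher and 1 lower (median 0.41). MRPL24 read 9.68, 9.23 and 9.54 with BB2-125 against 8.64, 8.15 and 8.51 (1.05 ± 0.13), and PSMB3, of the proteasome core, 11.51, 11.39 and 11.41 against 10.38, 10.04 and 10.25 (1.21 ± 0.11). Of 44 nuclear genes of the respiratory chain 18 were higher and 0 lower (median 0.22), led by NDUFA9 (0.93 ± 0.10) and NDUFB8 (0.92 ± 0.11) of complex I. Without BB2-125 replicate 1 the respiratory genes called higher numbered 11. Of 38 cytosolic ribosomal proteins 3 were higher and 1 lower, or 6 higher and 1 lower with the replicate number as a block. Without the block 10.5% were called, against 28.4% of all genes.

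Lysosomal genes were higher in 13 of 36 cases and lower in 1. CTSL, the protease cathepsin L, read 10.58, 10.19 and 10.54 with BB2-125 against 8.68, 8.37 and 8.43. NPC1, the lysosomal cholesterol exporter, read 8.96, 9.25 and 9.16 against 10.13, 10.47 and 10.22. The proteases and hydrolases CTSL (1.94 ± 0.12), CTSC (1.42 ± 0.12), PPT1 (1.43 ± 0.20) and GLA (1.23 ± 0.14) rose while NPC1 was lower (-1.15 ± 0.15). In the tricarboxylic acid cycle list, IDH1, MDH1 (0.86 ± 0.13) and ME1 (0.85 ± 0.15) of the cytosol were higher and ACO1 (-0.91 ± 0.13) and PC, pyruvate carboxylase (-0.94 ± 0.13), lower.

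In the iron list 7 of 16 were lower, 2 higher and 7 did not pass. Those lower included CP as above, STEAP3, a ferrireductase (-1.56 ± 0.10), and BMP6, a regulator of hepcidin (-1.12 ± 0.10), whereas the ferritin light chain FTL rose. Of 13 metallothionein and zinc genes 5 were lower and 1 higher, with MT1X at 12.36, 12.07 and 12.21 with BB2-125 against 13.06, 13.26 and 13.29 (-0.99 ± 0.14). Metallothioneins are near-identical copies, and 3 of the 13 were called lower without hypoxic vehicle replicate 3 or without BB2-125 replicate 2.

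Inflammatory genes went both ways. Of 25 genes of the NF-kB pathway 7 were higher and 6 lower (median -0.02). CXCL8, the neutrophil chemokine interleukin 8, read 11.07, 11.22 and 10.86 with BB2-125 against 12.20, 12.10 and 12.19. CXCL2, another neutrophil chemokine, read 8.91, 8.63 and 8.56 against 7.63, 7.38 and 7.66. RELA, the activating NF-kB subunit, read 9.81, 9.92 and 9.78 against 10.42, 10.62 and 10.69. The groups were apart in all 3, with CXCL8 (-1.11 ± 0.15) and RELA (-0.74 ± 0.11) lower and CXCL2 (1.14 ± 0.14) higher. NFKBIA, the inhibitor, rose by 0.62 ± 0.09. Without hypoxic vehicle replicate 2 or without BB2-125 replicate 1, 4 NF-kB genes were called higher.

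Of 14 genes of the IL6 family and its signalling 4 were lower, 1 (SOCS1, an inhibitor) was higher and 9 did not pass, with a median of -0.04. Those lower were the kinase JAK2 (-0.34 ± 0.11) and the receptor chains OSMR, at 7.84, 7.74 and 7.94 with BB2-125 against 9.38, 9.78 and 9.40 (-1.68 ± 0.16), LIFR (-1.30 ± 0.20) and their shared chain IL6ST (-0.72 ± 0.13). JAK2 was not called without hypoxic vehicle replicate 2 (adjusted p = 0.199) or BB2-125 replicate 2 (0.0913) or 3 (0.0952). PTGES, the inducible prostaglandin E synthase, read 10.66, 10.36 and 10.68 against 8.84, 8.68 and 8.96 (1.74 ± 0.10). Of 19 immediate-early transcription factors 12 were higher and 3 lower (median 0.38), with NR4A1 at 10.48, 10.39 and 10.33 with BB2-125 against 9.04, 8.90 and 9.28 (1.32 ± 0.13), KLF10 at 1.05 ± 0.11 and FOSL2 at -0.88 ± 0.10. Of 18 interferon-stimulated genes 3 were higher and 3 lower, or 5 and 4 when replicate number was a block. Without the block that is 16.7% each way, near the 13.3% and 15% of all genes.

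Of 26 acetyltransferases and Jumonji demethylases 9 were lower and 1, KAT5 (0.52 ± 0.10), was higher. KAT2B, the acetyltransferase PCAF, read 6.53, 6.48 and 6.32 with BB2-125 against 7.77, 8.24 and 7.59 (-1.43 ± 0.15), and KAT6B changed by -1.12 ± 0.13. Of 27 elongation factors and BET proteins 8 were lower and 3 higher (9 and 5 with the replicate number as a block), including ELL2 (-0.89 ± 0.13) and AFF4 (-0.88 ± 0.13) of the super elongation complex, both lower, and CDK7 (0.76 ± 0.11) and the histone chaperone SSRP1 (0.72 ± 0.10), both higher. Splicing factors were higher in 9 of 27 cases and lower in 0, led by HNRNPL at 11.21, 11.23 and 11.19 with BB2-125 against 10.22, 9.82 and 10.33 (1.09 ± 0.12). Of 13 genes of the MYC network 2 were higher and 3 lower (15.4% and 23.1%, against 13.3% and 15% of all genes). MXD1, an antagonist of MYC (1.36 ± 0.18), and MYC (0.75 ± 0.10) were higher, and MGA (-0.75 ± 0.15), MNT (-0.40 ± 0.13) and MAX, the partner of MYC (-0.30 ± 0.09), were lower. MAX was not called without hypoxic vehicle replicate 1 (adjusted p = 0.0606) or BB2-125 replicate 3 (0.11), nor MNT without hypoxic vehicle replicate 1 (0.0518) or 3 (0.167) or BB2-125 replicate 2 (0.0735) or 3 (0.131).

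Epithelial genes were mostly not called. Of 15 keratin and junction genes 5 were lower and 1 higher, or 2 higher when replicate number was a block (median -0.06), with the desmosomal PKP3 at -0.68 ± 0.09, the tight junction gene CLDN1 at -0.77 ± 0.19 and KRT8 higher as above. CDH1, E-cadherin, was at -0.21 ± 0.14 and not called. Of 17 acute-phase and complement genes 2 were higher and 4 lower (median -0.01). FGG, a fibrinogen chain, read 6.62, 5.88 and 6.54 with BB2-125 against 4.97, 5.19 and 4.29 (1.53 ± 0.21). Its hypoxic vehicle arrays lay on both sides of the dim level of 4.73. C3 changed by -0.77 ± 0.15. Of 15 mucin and secretory genes 4 were higher and 2 lower. SPP1 as above, AGR2 (0.90 ± 0.14), SLPI (0.44 ± 0.16) and TFF3 (0.32 ± 0.11) were higher, and MUC5B (-1.39 ± 0.20) and MUC13 (-1.11 ± 0.15) lower. The calls of SLPI and TFF3 were lost without hypoxic vehicle replicate 2 (adjusted p = 0.0914 and 0.0694), hypoxic vehicle replicate 3 (0.163 and 0.0962) or BB2-125 replicate 1 (0.263 and 0.188), and that of TFF3 also without hypoxic vehicle replicate 1 (0.0518) or BB2-125 replicate 3 (0.0603).

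Small noncoding RNAs were called at shares near or below that of all genes. Of 84 C/D box small nucleolar RNAs, many of which guide methylation of ribosomal RNA, 13 were higher and 13 lower. That is 15.5% each way, near the 13.3% and 15% of all genes. The 17 copies of SNORD116 tested, an imprinted cluster on chromosome 15, held 12 of those falls and no rise, with changes from -1.09 to -0.37 and a median of -0.72. The other 67 held 13 rises and 1 fall. SNORD116-21 read 8.45, 7.38 and 7.64 with BB2-125 against 8.85, 9.06 and 8.82 (-1.09 ± 0.22). SNORD75, hosted by GAS5, read 10.29, 9.85 and 9.99 against 7.81, 7.38 and 7.52 (2.47 ± 0.16), and SNORD14E read 9.93, 9.73 and 9.39 against 8.39, 7.46 and 7.75 (1.82 ± 0.21). The groups were apart in these 3 genes. The SNORD116 copies are near-identical, so their probe sets are not independent readings. The C/D falls depended on single arrays: 6 remained in number without hypoxic vehicle replicate 1, 8 without hypoxic vehicle replicate 2, 5 without BB2-125 replicate 2, 6 without BB2-125 replicate 3 and 22 without BB2-125 replicate 1. With the replicate number as a block there were 20 rises and 27 falls.

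H/ACA box RNAs, which guide pseudouridylation, were called in 4 of 54 cases, all higher, or 11 higher and 7 lower with the block. The 4 are 7.41%, against 28.4% of all genes called. Of 37 Cajal body, spliceosomal and vault RNAs 8 were higher and 0 lower, or 12 and 0 with the block. The 8 are 21.6%, against 28.4% of all genes called and 13.3% called higher. Leaving out any 1 array of either group but hypoxic vehicle replicate 1 or BB2-125 replicate 2 left 3 or 4 of those 8 rises in number, and 5 without hypoxic vehicle replicate 1. VTRNA1-1, a vault RNA, read 7.92, 5.83 and 6.75 with BB2-125 against 6.08, 5.11 and 5.49. Its groups overlapped, and its difference of 1.27 ± 0.47 was not called (adjusted p = 0.0522), but was called with the replicate number as a block (adjusted p = 0.000247).

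Of 88 microRNA genes tested 4 were higher and 11 lower, which is 17% called against 28.4% of all genes. The probe sets lie on the gene and read precursor or host transcripts, and mature microRNA was not measured. MIR15A read 5.43, 4.99 and 5.16 with BB2-125 against 7.04, 7.14 and 7.30 in hypoxic vehicle. MIR15B read 6.06, 5.34 and 5.63 against 4.94, 4.59 and 4.74. These genes of 1 family thus moved apart without overlap, by -1.97 ± 0.15 for MIR15A and 0.92 ± 0.18 for MIR15B. Their mature 5p products share a seed, printed in capitals (bases 2 to 8), beside those of MIR21 and MIR31, called falls of about 1 unit (RefSeq, GRCh38.p14).
hsa-miR-15a-5p: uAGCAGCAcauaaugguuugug
hsa-miR-15b-5p: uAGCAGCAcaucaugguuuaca
hsa-miR-21-5p: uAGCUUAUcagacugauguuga
hsa-miR-31-5p: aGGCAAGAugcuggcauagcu
They lie at chr13:50049167-50049188 (minus strand), chr3:160404607-160404628 (+), chr17:59841273-59841294 (+) and chr9:21512158-21512178 (minus). MIR21 read 8.51, 8.45 and 8.66 with BB2-125 against 9.38, 9.85 and 9.41 (-1.0 ± 0.12). MIR31 read 5.25, 5.04 and 4.95 against 5.80, 6.40 and 6.10 (-1.02 ± 0.20). Both were separated from hypoxic vehicle. The clustered genes MIR23A (-0.60 ± 0.16), MIR27A (-0.56 ± 0.17) and MIR24-2 (-1.06 ± 0.27) on chromosome 19 were lower together, though the arrays of MIR23A overlapped. MIR23A was not called without BB2-125 replicate 1 (adjusted p = 0.052), nor MIR27A without that array (0.0622) or without hypoxic vehicle replicate 2 (0.0578) or 3 (0.112). With a stricter filter on dim genes 6 microRNA genes were called lower.

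Longer genes were more often lower. The 14875 protein-coding genes tested were put into 5 equal groups by the span of the gene in RefSeq. The share called lower was 6.29% in the shortest group, 10.8%, 15.2% and 19.4% in the next, and 26.8% in the longest, above 87.9 kb. The share called higher was 15.4%, 14.8%, 15.9%, 13.8% and 8.74% in the same order. The median change ran from 0.07 to -0.063, and Pearson's r of the change with log10 span was -0.21 across genes, which share arrays and are not independent replicates. With arrays centred on their medians the shares lower were 6.96% in the shortest and 26.4% in the longest group. The corresponding medians against hypoxic vehicle were 0.181 and -0.1 for BB2-162 and 0.013 and 0.026 for BB2-282, comparisons that share the vehicle arrays. Gene span goes with intron number, base composition and probe placement, whose part in the result was not tested.

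**Figure D4:**
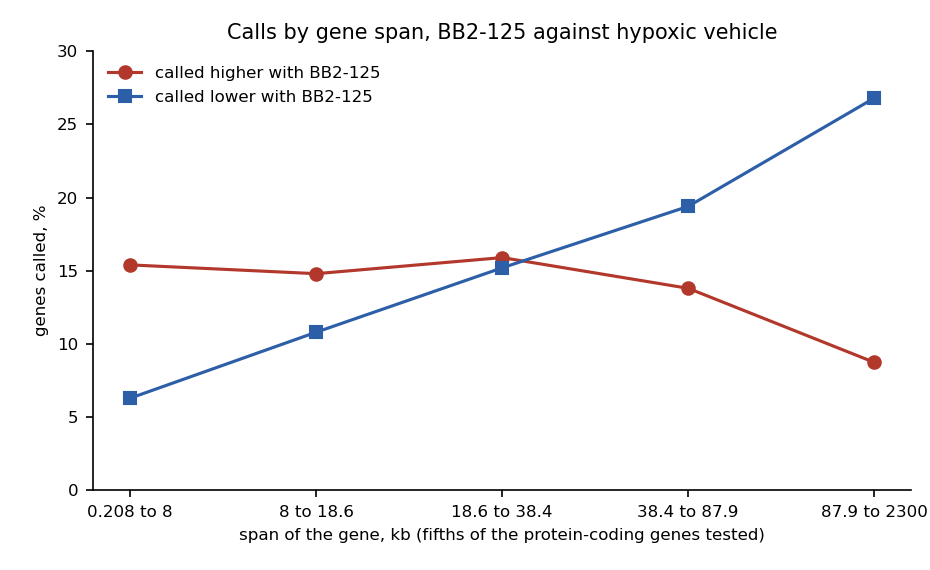
Percent of genes called higher (red circles) or lower (blue squares) with BB2-125 in 5 equal groups of the protein-coding genes tested, by gene span in kb (2975 genes each). The share lower climbs from 6.29% in the shortest to 26.8% in the longest group, and the share higher ends at 8.74%.

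BB2-125 was compared with BB2-162 and with BB2-282 at the same dose and times, 2 pairs in all, in contrasts that hold no vehicle array. Against BB2-162, 4182 genes were called (26.1%), 2672 higher with BB2-125 (16.7%) and 1510 lower (9.43%). Rises were 63.9% of these calls, and 74.4% with arrays centred on their medians (2944 of 3955). Against BB2-282, 5813 were called (36.3%), 2992 higher (18.7%) and 2821 lower (17.6%). The count of the first pair was 2582 in a fit of its 2 groups alone and 1849 when replicate number was a block there. It was 6208 without BB2-162 replicate 1 and 2645 without BB2-162 replicate 3.

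Against BB2-162, mitotic genes were higher in 33 of 41 cases and lower in 0 (median difference 0.83), and replication genes higher in 28 of 39 and lower in 1. TOP2A averaged 8.77 with BB2-125, a difference of 1.82 ± 0.17 from BB2-162 although it was not called against hypoxic vehicle. RRM2 (1.98 ± 0.15), CDKN3 (1.87 ± 0.18) and CEP55 (1.85 ± 0.15), all of the cell cycle, and the differentiation gene UPK1B (2.10 ± 0.16) were among the largest differences. Immediate-early factors were lower in 13 of 19 cases and higher in 0, and NF-kB genes lower in 16 of 25 and higher in 0. Other inflammation lists varied. Prostaglandin genes were higher in 7 of 16 cases and lower in 2, and acute-phase genes higher in 4 of 17 and lower in 3. Interferon-stimulated genes were higher in 1 of 18 and lower in 3, and IL6 family genes higher in 1 of 14 and lower in 4. NR4A2 (-2.08 ± 0.17), CXCL8 (-1.81 ± 0.15), CXCL1 (-1.52 ± 0.13) and CXCL2 (-1.41 ± 0.14) were lower, as were CEACAM5 (-2.32 ± 0.15), CST1 (-2.15 ± 0.16), EFNA1 (-1.93 ± 0.10) and the microRNA genes MIR24-2 (-1.85 ± 0.27) and MIR365A (-1.83 ± 0.16).

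Integrins and laminins were higher with BB2-125 than with BB2-162 in 4 of 18 cases and lower in 1, with a median difference of 0.06, a share called near the 26.1% of all genes. ITGA6 differed by -0.08 ± 0.16, TNS4 by -0.37 ± 0.14, ABTB3 by -0.16 ± 0.13 and BRD10 by 0.01 ± 0.29, none of them called, which does not show that the compounds act alike; TNS4 was called without BB2-125 replicate 1 (adjusted p = 0.0479) or BB2-162 replicate 1 (0.0425). EGFR was higher with BB2-125 than with BB2-162 by 0.81 ± 0.17. Of 38 HIF targets in signalling and survival, 16 were lower with BB2-125 than with BB2-162 and 3 higher (median difference -0.24). Over all genes 9.43% were lower and 16.7% higher. VEGFA (-0.82 ± 0.11), EDN1 (-0.81 ± 0.13) and CXCR4 (-1.09 ± 0.13) were lower with BB2-125. EGLN3 (0.25 ± 0.12) and LOX of the collagen enzymes (0.36 ± 0.16) did not pass. IDH1 (1.83 ± 0.14), C5 (2.08 ± 0.18) and CES1 (1.61 ± 0.19) were higher.

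Against BB2-282 the order of the lists was another. Histones were higher in 41 of 45 cases and lower in 0 (median difference 0.92), mitochondrial ribosomal proteins in 45 of 54 and 0 (0.66), respiratory chain genes in 33 of 44 and 0 (0.66), and chaperones in 22 of 26 against 1 lower (0.87). Cytosolic ribosomal proteins, of which few were called against hypoxic vehicle, were higher in 27 of 38 cases and lower in 0 (0.35). Integrins and laminins were lower in 13 of 18 and higher in 1 (-0.98), and H/ACA RNAs lower in 22 of 54 and higher in 2 (-0.51). HIF targets in signalling and survival were lower in 19 of 38 and higher in 5 (-0.32). LOX (-3.46 ± 0.16), PMEPA1 (-3.20 ± 0.11), MUC12 (-3.04 ± 0.24), HOXD10 (-2.88 ± 0.13), EGFR (-2.69 ± 0.17), VTRNA1-1 (-3.65 ± 0.47), SCARNA4 (-3.50 ± 0.19) and SNORA46 (-3.46 ± 0.29) were much lower with BB2-125. SNORD75 (3.76 ± 0.16), FGB (3.58 ± 0.17), PDK4 (2.83 ± 0.15), TM4SF20 (2.73 ± 0.22) and AGR2 (2.52 ± 0.14) were much higher.

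The largest changes differed between the pairs. SPP1 was higher with BB2-125 by 0.43 ± 0.11 over BB2-162 (adjusted p = 0.0569 when replicate number was a block), and by 1.64 ± 0.11 over BB2-282, NUPR1 by 1.38 ± 0.12 and 1.65 ± 0.12, IDH1 by 1.83 ± 0.14 and 2.49 ± 0.14, and C5 by 2.08 ± 0.18 and 1.88 ± 0.18. EREG differed from BB2-282 by 2.32 ± 0.20 and from BB2-162 by 0.35 ± 0.20, the second not called, or called at 0.62 without BB2-162 replicate 1 (adjusted p = 0.0114). HSPA6 was lower than with BB2-162 (-1.07 ± 0.15) and higher than with BB2-282 (2.01 ± 0.15). TNS1 was lower in both pairs (-1.56 ± 0.12 and -2.59 ± 0.12), as was IGFBP1 (-1.06 ± 0.15 and -1.02 ± 0.15). CP was not called against BB2-162 (0.21 ± 0.18) and was lower than with BB2-282 (-0.47 ± 0.18, adjusted p = 0.0497), a call lost under 10 of the alternatives (adjusted p 0.0551 to 0.203), 5 of which left out 1 array of either group.

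**Figure D5:**
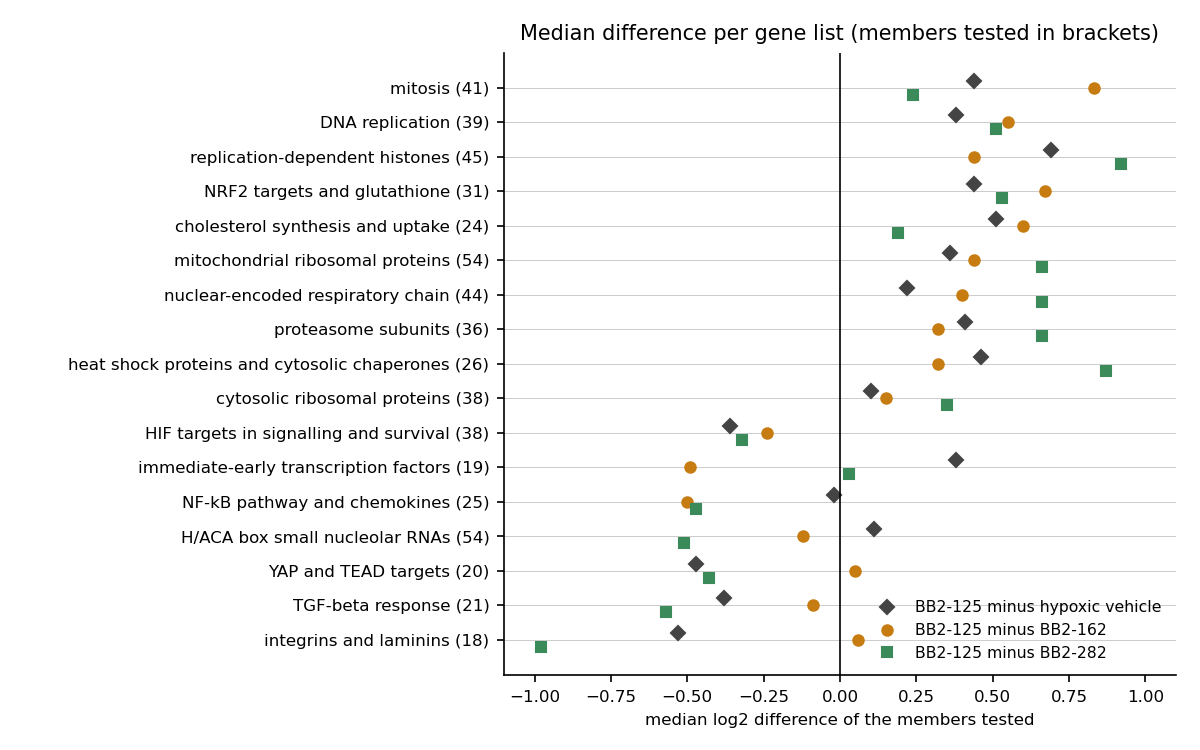
Median log2 difference of the members tested in 17 gene lists, for BB2-125 minus hypoxic vehicle (diamonds), minus BB2-162 (circles) and minus BB2-282 (squares), which share the BB2-125 arrays. Mitosis is furthest above BB2-162 (0.83), histones furthest above BB2-282 (0.92), and integrins and laminins furthest below BB2-282 (-0.98).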

How the data were processed

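Total RNA was hybridised to arrays after whole-transcript labelling, per the labels' protocols. The authors deposited linear intensities for 28869 probe sets. RMA, which corrects background, normalizes and summarises probes, is named in the submitters' processing notes, and its version and the genome build are not given in the sources used here. Log2 was taken here. Of the probe sets, 19310 had 1 gene symbol in the platform annotation, and symbols were updated through Entrez IDs where found. The probe set of highest mean stood for each of 18377 genes. A filter on dim genes, above the 25th percentile of the array on 3 or more arrays, removed 2372. All 15 arrays entered a single model with a mean per group (limma 3.58.1, R 4.3.3; 10 residual and 7.96 prior degrees of freedom), with p-values adjusted by Benjamini-Hochberg within each comparison; the procedure was tested on simulated data. Where a group's mean was at or below the dim level, the change was also counted from that level.

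Members and gene lists were chosen with earlier results of these data known. From each list the called members of lowest p were described first, a choice that favours separated groups. Named genes are the 15 largest rises and falls with separated groups, the next 5 each way as bounds, the 5 called genes of highest signal each way, members of the lists, and the 8 largest differences each way between compounds. Deviations from the group means correlated between same-numbered BB2-125 and hypoxic vehicle arrays (r = 0.33, 0.29 and 0.19). In other pairs r ran from -0.31 to -0.05. Deviations cancel within a group, so the values of the pairs are not independent of each other. The numbers were taken as pairs in an alternative fit. Promoters and microRNAs came from RefSeq (GRCh38.p14), with a promoter found for 12500 genes. Other alternatives changed scaling, offset, filter, probe sets, variance model and the arrays used.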

Additional observations from a re-analysis of the deposited data

Results flagged for a closer look

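Probe sets that the annotation gives no symbol, or several, entered no comparison above, and they carried a signal too. Tested in 1 fit with the named probe sets, 5693 of them passed the filter on dim values, and 858 were called between BB2-125 and hypoxic vehicle, 509 higher and 349 lower. That is 15.1%, from a fit of 22493 probe sets. The 28.4% of named genes came from the main fit, with 1 probe set per gene, so the 2 shares are not of like sets.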

How the results depend on the processing

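The count of genes called against hypoxic vehicle was 4539, and ran from 3770 to 4101 when 1 array of these 2 groups was left out. It was 5086 without BB2-162 replicate 1, an array of neither group, which enters through the shared estimate of spread. Under other scaling, offset, filter, probe set and variance settings it was 4305 to 4608. With the replicate number as a block in a fit of the 2 groups, 5352 were called, 4472 of them among the 4539; beside the calls given above, SNORA65 was gained (adjusted p = 0.049) and SOX9 lost (adjusted p = 0.0507), and no other call named was changed by that pairing. Against BB2-162 the 4182 calls became 2582 in a fit of the 2 groups alone, 1849 there with the replicate block, and 2645 to 6208 when 1 array was left out. Against BB2-282 the range without 1 array of the 2 groups was 4973 to 5388, and the count was 6351 without BB2-162 replicate 1. BRD10 against BB2-162, not called, changed sign with an offset of 16 (-0.0, adjusted p = 0.99) and without 1 array (range -0.34 to 0.32). Against hypoxic vehicle NRG1 did so as a mean of probe sets (-0.27), and so did uncalled HK2 with quantile normalization (-0.03) or without 1 array (-0.11 to 0.17), CCN1 without 1 array (-0.21 to 0.06) and HBEGF without 1 array (-0.0 to 0.2). Of 126 counts of list members 44 moved by over 1.5 times without 1 array, 37 of them counts of 5 or fewer. Dim genes have only bounds, and 3 arrays a group limit the detection of small changes.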
